A study of Mus musculus with 27 samples.

Results

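The genes described here encode the eukaryotic translation initiation factors (eIFs), the proteins that bring the initiator methionyl-tRNA, the mRNA and the ribosomal subunits together at a start codon. Every protein-coding gene whose symbol begins with Eif1 to Eif6 was taken, and the Eif2ak kinases, which act on eIF2 but are not initiation factors, were left out. This rule used names only and gave 51 genes out of 22046 protein-coding genes and 54532 genes in all. Of the 51 genes 2 were never or hardly counted, and 49 were tested in each comparison.

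B cells were purified from the spleens of wild-type (WT) C57BL6 mice by removing the other cell types, kept for 3 h in culture and sequenced as bulk mRNA. In the first experiment 5 groups of 4 libraries each were made, namely cells without stimuli, cells with lipopolysaccharide (LPS), a T-cell-independent stimulus, cells with IL-4 and anti-CD40 (written IL-4/CD40), a T-cell-dependent stimulus, and each stimulus combined with 1 µM disulfiram (DSF). The stimulated groups without DSF were labelled as receiving vehicle. Disulfiram is an aldehyde dehydrogenase inhibitor that the study used to block B-cell responses. In the second experiment 7 conditions had 1 library each: unstimulated, LPS or IL-4/CD40 cells with the solvent DMSO, each stimulus with 1 µM DSF, and each stimulus with 1 µM ibrutinib, an inhibitor of Bruton's tyrosine kinase. All cells were of the same genotype, no unstimulated cells with an inhibitor were among the samples, and the study calls the replicate samples biologically independent, while the labels do not tie the libraries to separate animals. The adjusted p-values below therefore measure the spread between libraries.

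Initiation starts when eIF2, a trimer that carries GTP and the initiator tRNA, joins the small ribosomal subunit with eIF1, eIF1A, eIF3 and eIF5. The exchange factor eIF2B reloads eIF2 with GTP, and phosphorylation of eIF2 turns eIF2 into an inhibitor of eIF2B, which is the core of the integrated stress response. The cap of the mRNA is bound by eIF4F, made of the cap-binding protein eIF4E, the scaffold eIF4G and the helicase eIF4A, and the 4E-binding proteins keep eIF4E away from eIF4G until the kinase complex mTORC1 phosphorylates them. Resting B cells are small cells with little protein synthesis, and stimulated B cells grow and raise it before they divide.

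Promoter sequences of 39 of the 51 genes were found in RefSeq (assembly GRCm38.p6), and the 250 bases before each transcription start were searched on both strands for 4 short motifs. The 39 genes had 51 promoter entries, so some genes had several starts. The E-box CACGTG, the core sequence bound by Myc and related factors, was present for 9 of the 39 genes (23.1%), namely Eif1b, Eif3f, Eif3k, Eif4a1, Eif4e, Eif4g1, Eif4h, Eif5a and Eif5a2, and for 6.86% of the 27025 genes with a promoter entry. The amino acid response motif TGATGNAA was found for 1 of 39 (2.56%, Eif2s3x) and 3.91% of all genes, TATAAA for 4 of 39 (10.3%) and 14.3%, and CCAAT for 12 of 39 (30.8%) and 37.5%. No motif holds the letters of another. The windows below show the E-box, in capitals, of the 3 genes of the cap-binding complex and of Eif5a, whose mRNAs were all higher under both stimuli, and of Eif5a2, Eif3f and Eif1b, whose mRNAs were lower under LPS. The same letters stood before genes that moved in both directions.
Eif4e (chr3:138527182-138527231, plus strand, E-box beginning 64 bases before the start): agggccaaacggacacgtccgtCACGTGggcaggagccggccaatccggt
Eif4g1 (chr16:20672651-20672700, plus strand, 54 bases before the start): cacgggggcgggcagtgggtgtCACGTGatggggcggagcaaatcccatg
Eif4a1 (chr11:69672585-69672634, minus strand, 189 bases before the start): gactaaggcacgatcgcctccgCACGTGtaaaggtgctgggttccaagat
Eif5a (chr11:69921433-69921482, minus strand, 74 bases before the start): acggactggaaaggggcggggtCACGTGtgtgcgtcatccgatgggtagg
Eif5a2 (chr3:28781138-28781187, plus strand, 117 bases before the start): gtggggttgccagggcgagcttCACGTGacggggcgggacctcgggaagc
Eif3f (chr7:108934325-108934374, plus strand, 68 bases before the start): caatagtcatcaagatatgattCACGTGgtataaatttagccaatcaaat
Eif1b (chr9:120492560-120492605, plus strand, 24 bases before the start): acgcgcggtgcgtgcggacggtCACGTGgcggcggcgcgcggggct
Distances are to the nearest RefSeq start of the gene. The windows of Eif4e, Eif4g1, Eif5a and Eif1b lie inside the gene bounds of the deposited tables, before a RefSeq start within them. Eif4e, Eif5a and Eif5a2 each had a further E-box that is not shown. A match of letters is a description of the promoter and not evidence of a bound site.

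The libraries of the first experiment held between 17804851 and 23632992 counts, and the 51 genes took about 1% to 2% of them. The share was between 0.989% and 1.17% in unstimulated libraries, between 1.46% and 1.49% with LPS and between 1.69% and 1.86% with IL-4/CD40. With DSF it was between 1.36% and 1.40% in LPS libraries and between 1.49% and 1.54% in IL-4/CD40 libraries, so that for each stimulus the libraries with DSF lay below those without it and above the unstimulated ones. In bulk samples a smaller number of cells of one type and less RNA per cell cannot be told apart.

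Several sample features moved with the stimulus. The unstimulated libraries 1 and 2 stood apart from 3 and 4 (the correlations of their deviations from the group mean, a description across genes, were 0.934 and 0.88 within the pairs and -0.961 to -0.946 across them), and the median coefficient of variation of the initiation factor genes was 13.8% in that group against 3.15% to 5.87% in the others. The summed level of 8 myeloid marker genes was 547 to 674 CPM (counts normalised to library size, scaled by trimmed means) in unstimulated libraries and 130 to 311 in the other groups of the first experiment, with none of the 8 at 0, and 24.2 to 74.9 in the second, with 1 of the 8 at 0 in the LPS library. B-cell markers (7 of 7 detected) summed to 10710 to 15330 in unstimulated and 6574 to 8245 in the other libraries of the first experiment, and T-cell, NK-cell and erythroid markers stayed at 14.8 or less there. The sum of 3 plasma-cell markers was 285 to 348 in unstimulated libraries, 168 to 188 under LPS and 147 to 164 under IL-4/CD40. In the second experiment it was 262, 185 and 171. Of these 3, Prdm1 went up in the first experiment, from a mean of 15.5 CPM to 23.3 and 32.2. The part of these features in the results was not tested. In the second experiment, where the unstimulated, LPS and IL-4/CD40 libraries had myeloid sums of 30.5, 24.2 and 28.9, the initiation factor genes had a median log2 ratio to the unstimulated library of 0.62 (LPS) and 0.72 (IL-4/CD40).

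Levels were compared between genes only as the deposited FPKM, which divide counts by gene length. Eif5a, which helps the ribosome through difficult peptide bonds, had the highest level of the 51 in unstimulated cells (213 ± 26, SD, n = 4), followed by Eif3h (154 ± 22), Eif1 (150 ± 12) and Eif3f (120 ± 20). The ranges of Eif3h and Eif1 overlapped, so that their order is not resolved. With LPS the order was led by Eif5a (416 ± 18), Eif4a1 (288 ± 7.4) and Eif1 (196 ± 6.6), and with IL-4/CD40 by the same 3 genes at 606 ± 75, 331 ± 26 and 204 ± 5.3. There Eif3b (191.6 to 215.8) overlapped Eif1 (196.6 to 208.5), so that the order of Eif1 and Eif3b is not resolved. With LPS and DSF, Eif4a1 (357 ± 7.4) and Eif1 (355 ± 23) did not differ beyond their spread and stood above Eif5a (327 ± 17) in mean. With IL-4/CD40 and DSF, Eif5a (428 ± 12) remained first, before Eif4a1 (331 ± 17) and Eif1 (330 ± 22). At the low end, Eif2s3y, the Y-linked copy of the eIF2 gamma subunit, had 0 counts in all 27 libraries, and Eif4e1b, a germ-cell form of eIF4E, had 1 count in 2 libraries and 0 in the rest. Eif3j2 (0.768 FPKM), Eif4ebp3 (1.11) and Eif5a2 (2.19) were the lowest of the 49 tested genes in unstimulated cells.

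To find how initiation factor mRNAs responded to stimulation, each stimulus was compared with unstimulated cells in edgeR's quasi-likelihood test over all genes, with Benjamini-Hochberg adjustment and a threshold of 0.05. With LPS, 34 of 49 rose, 6 fell and 9 did not pass, while 29.6% of the 14477 genes tested rose and 33.3% fell. The median log2 fold change was 0.57 for the initiation factor genes and -0.0459 for all genes. With IL-4/CD40, 37 rose, 4 fell and 8 did not pass, against 30.4% higher and 32.1% lower among 14433 genes, with medians of 0.76 and -0.0408. In 33 genes with LPS and 34 with IL-4/CD40 all 4 stimulated libraries lay above all 4 unstimulated ones, and in 6 and 5 genes all lay below. Of all genes tested 29.5% lay wholly above and 31.4% wholly below with LPS, and 27.8% and 32.3% with IL-4/CD40. Without unstimulated libraries 1 and 2 LPS gave 36 higher and 8 lower genes and IL-4/CD40 36 and 6, and without libraries 3 and 4 the numbers were 37 and 6 for LPS and 37 and 5 for IL-4/CD40.

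**Figure D1:**
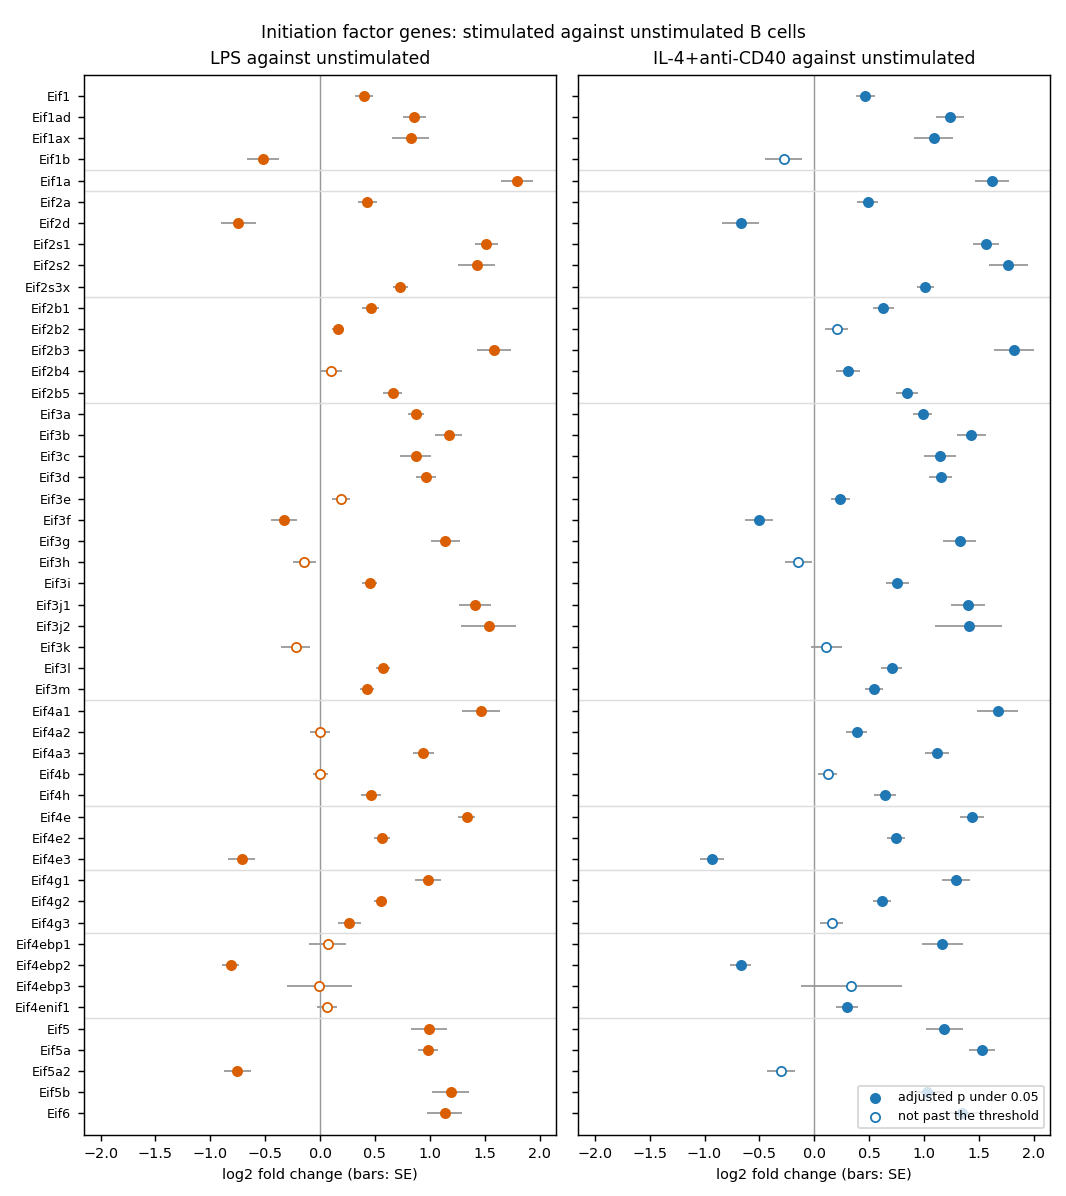
Log2 fold change (x axis) of each of the 49 tested initiation factor genes (y axis, ordered by role and separated by lines) with LPS (left) and IL-4/CD40 (right) against unstimulated cells, 4 libraries per group, with bars for the SE. Filled points passed the adjusted p threshold of 0.05: 34 of the filled points lie right of 0 with LPS and 37 with IL-4/CD40.

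The eIF2 trimer genes rose. Eif2s1, the alpha subunit that carries the regulatory phosphorylation site, had 106, 110, 80.9 and 81.6 CPM in the unstimulated libraries, 274, 266, 276 and 264 under LPS, and 276, 288, 256 and 258 with IL-4/CD40. Both stimulated groups lay wholly above the unstimulated one, and the log2 fold changes were 1.52 (SE 0.109, edgeR adjusted p = 7.28e-06) and 1.57 (SE 0.12, adjusted p = 1.09e-05). Eif2s2, the beta subunit, went from 141, 140, 88.5 and 87.4 CPM to 307, 306, 319 and 295 under LPS and 387, 395, 346 and 370 under IL-4/CD40. Its changes of 1.43 (SE 0.169) and 1.77 (SE 0.176) were among the largest of all, and the groups did not overlap. Eif2s3x, the X-linked gamma subunit, changed by 0.73 and 1.01, and Eif2a, which can bring initiator tRNA to some mRNAs in place of eIF2, by 0.43 and 0.49. Eif2d, which can deliver tRNA to the ribosome without eIF2, fell instead, from 32.1, 30.8, 47.1 and 48.3 CPM to between 22.9 and 24 with LPS (log2 fold change -0.74, edgeR adjusted p = 0.0031) and between 21.3 and 26.5 with IL-4/CD40 (-0.67, adjusted p = 0.00763).

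Of the 5 eIF2B subunit genes, 4 rose with LPS and 4 with IL-4/CD40, by very unequal amounts. Of all genes tested 29.6% rose with LPS and 30.4% with IL-4/CD40. Eif2b3, which encodes the gamma subunit of the catalytic arm, was at 20.8, 21.3, 13.5 and 14.3 CPM in unstimulated libraries, at 56.2, 51.9, 53.7 and 48.5 under LPS and at 64.6, 67, 56.2 and 49.7 under IL-4/CD40. It had the largest log2 fold change of the 49 with IL-4/CD40 (1.82, SE 0.18, adjusted p = 3.92e-05) and 1.59 with LPS (SE 0.155, adjusted p = 3.67e-05), with no overlap of the groups. Eif2b5, the catalytic epsilon subunit, changed by 0.66 and 0.84 and Eif2b1, the regulatory alpha subunit, by 0.46 and 0.63. Eif2b2 rose with LPS by 0.16, a call that was lost in 6 of the 8 fits that left out a library (any LPS library or unstimulated library 2 or 3, adjusted p of 0.0506 to 0.0795) and whose direction turned to -0.063 when counts were scaled by library totals. Eif2b4 changed by 0.10 with LPS and rose by 0.31 with IL-4/CD40, a call lost without IL-4/CD40 library 1, 2 or 3 or unstimulated library 3 or 4 (adjusted p of 0.0578 to 0.0992).

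Of the 14 genes of eIF3, the largest complex of the set and the platform that binds the small subunit, 10 rose and 1 fell with LPS and 11 rose and 1 fell with IL-4/CD40. Over all genes tested 29.6% rose and 33.3% fell with LPS, and 30.4% rose and 32.1% fell with IL-4/CD40. Eif3j1 and Eif3j2, near-identical copies of the loosely bound j subunit, had log2 fold changes of 1.41 and 1.54 under LPS and 1.40 and 1.41 under IL-4/CD40. Eif3j1 was counted far more often, at 54.5 to 85.6 CPM in unstimulated libraries and 183 to 189 with LPS, while Eif3j2 went from between 1.31 and 2.85 to between 5 and 6.11. Of the 100-base stretches of Eif3j2 transcripts 84.0% are also found in Eif3j1, so that the split of reads between the copies is uncertain. Eif3g (1.14 with LPS) and Eif3b (1.17) were next among the eIF3 genes with LPS. The core subunits Eif3a (0.87 and 0.99), Eif3c (0.87 and 1.15) and Eif3d (0.97 and 1.15) rose under both stimuli, as did Eif3i (0.45 and 0.76), Eif3l (0.57 and 0.70) and Eif3m (0.43 and 0.54). The only one to fall was Eif3f, at 292, 303, 405 and 402 CPM in unstimulated libraries, 274, 289, 273 and 278 under LPS and 242, 256, 223 and 233 under IL-4/CD40. Its log2 fold changes were -0.33 (edgeR adjusted p = 0.0383) and -0.50 (adjusted p = 0.00797), and the LPS call was lost without any 1 of the LPS libraries or without unstimulated library 3 or 4 (adjusted p of 0.0694 to 0.101). Eif3h, Eif3k and, with LPS, Eif3e did not pass the test, at log2 fold changes between -0.22 and 0.19.

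The cap-binding genes separated paralogs. Eif4a1, the main helicase, had 575, 572, 349 and 356 CPM in unstimulated libraries, 1253, 1302, 1304 and 1243 under LPS and 1488, 1499, 1357 and 1331 under IL-4/CD40. These are log2 fold changes of 1.47 (SE 0.177, edgeR adjusted p = 0.000124) and 1.67 (SE 0.185, adjusted p = 6.98e-05), without overlap. Eif4a2, the helicase also linked to microRNA repression, was at 499, 507, 599 and 618 CPM before and 580, 569, 550 and 519 after LPS, which overlapped (log2 fold change -0.0019, adjusted p = 0.987), and at 685 to 727 with IL-4/CD40 (0.39, adjusted p = 0.00591). In the deposited FPKM, Eif4a1 (106 ± 30) and Eif4a2 (103 ± 10) did not differ in unstimulated cells beyond their spread, while with LPS they stood at 288 ± 7.4 and 102 ± 4.8. Eif4a3, the helicase of the exon junction complex, changed by 0.94 and 1.12, Eif4h by 0.46 and 0.65, and Eif4b by 0.0017 and 0.12, of which the Eif4b values did not pass. Of the stretches of Eif4a1 22.6% occur elsewhere, mostly in the pseudogene Eif4a-ps4.

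Eif4e itself went from 82.9, 83.4, 68.8 and 71.8 CPM to 186, 200, 201 and 186 under LPS and 212, 223, 180 and 183 under IL-4/CD40, log2 fold changes of 1.34 (SE 0.0789, edgeR adjusted p = 2.64e-06) and 1.44 (SE 0.109, adjusted p = 1.04e-05). Its relative Eif4e3, which binds the cap in another way, fell from 11, 12.4, 11.8 and 11.4 CPM to 7.65, 6.39, 6.05 and 8.32 and to 5.55, 5.56, 5.79 and 6.72. Its log2 fold changes were -0.72 (adjusted p = 0.00103) and -0.93 (adjusted p = 0.00011), again without overlap. Eif4e2, which with partners represses translation, changed by 0.57 and 0.75. In the eIF4G family, Eif4g1 changed by 0.98 and 1.29 and Eif4g2, which lacks the eIF4E-binding region, by 0.55 and 0.62. Eif4g3 changed by 0.27 with LPS (adjusted p = 0.049, lost without LPS library 1, 2 or 4 or unstimulated library 3 or 4, adjusted p of 0.0836 to 0.113) and by 0.16 with IL-4/CD40 (adjusted p = 0.211).

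The 4E-binding proteins, which hold eIF4E back, also split. Eif4ebp2 was at 309, 309, 272 and 261 CPM in unstimulated libraries, 162, 154, 164 and 174 under LPS and 174, 195, 162 and 165 under IL-4/CD40, and all stimulated values lay below all unstimulated ones. Its log2 fold change with LPS of -0.81 was the lowest of the 49 genes (SE 0.0759, edgeR adjusted p = 2.87e-05), and with IL-4/CD40 it was -0.67 (SE 0.0953, adjusted p = 0.000291). Eif4ebp1 was at 27.9, 28.3, 16.6 and 19.5 CPM in unstimulated cells, 22.4, 24.7, 25.8 and 23.6 under LPS, and 52.9, 57.6, 43.7 and 45 with IL-4/CD40. Only the last group stood clear of the unstimulated libraries, at a difference of 1.17 on the log2 scale (SE 0.188, adjusted p = 0.000596), while the change with LPS was 0.068 (adjusted p = 0.743). In the second experiment, with 1 library a condition, the log2 ratio of Eif4ebp1 with LPS was 0.52. Eif4enif1, which carries eIF4E into the nucleus, changed by 0.066 with LPS (adjusted p = 0.546) and rose by 0.30 with IL-4/CD40 (adjusted p = 0.0246, lost without unstimulated or IL-4/CD40 library 1 or 2, adjusted p of 0.0525 to 0.0639). Eif4ebp3 did not pass in any comparison at about 0.5 to 1.9 CPM, and 62.8% of its stretches are shared with another annotated transcript.

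Among the remaining factors, Eif1a had the largest log2 fold change with LPS (1.79, SE 0.149, edgeR adjusted p = 1.56e-05), from 84.7, 79.9, 56.5 and 53.5 CPM to 237, 238, 246 and 230, and reached 215, 216, 188 and 193 with IL-4/CD40 (1.62). Eif1ax, which also encodes eIF1A, changed by 0.82 and 1.09, and Eif1ad, which holds an eIF1A-like domain, by 0.86 and 1.24. Eif1, which guards start codon choice, changed by 0.40 and 0.46, and its close relative Eif1b was called lower with LPS (-0.52, adjusted p = 0.0136) and not with IL-4/CD40 (-0.28, adjusted p = 0.18). Eif5, the GTPase activator of eIF2, changed by 0.99 and 1.19, Eif5b, which joins the subunits, by 1.19 and 1.03, and Eif6, which keeps free large subunits apart, by 1.13 and 1.34. Eif5a rose from 573, 550, 460 and 465 CPM to 958, 1041, 1048 and 991 under LPS and 1520, 1588, 1283 and 1302 under IL-4/CD40 (log2 fold changes 0.98 and 1.53). Eif5a2, its low copy, went from 12.8, 10.4, 9.53 and 11.9 CPM to 6.64, 6.96, 6.58 and 6.26 with LPS (-0.75, SE 0.12, adjusted p = 0.000624), with no overlap, and to between 7.89 and 9.27 with IL-4/CD40 (-0.30, adjusted p = 0.0654).

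**Figure D2:**
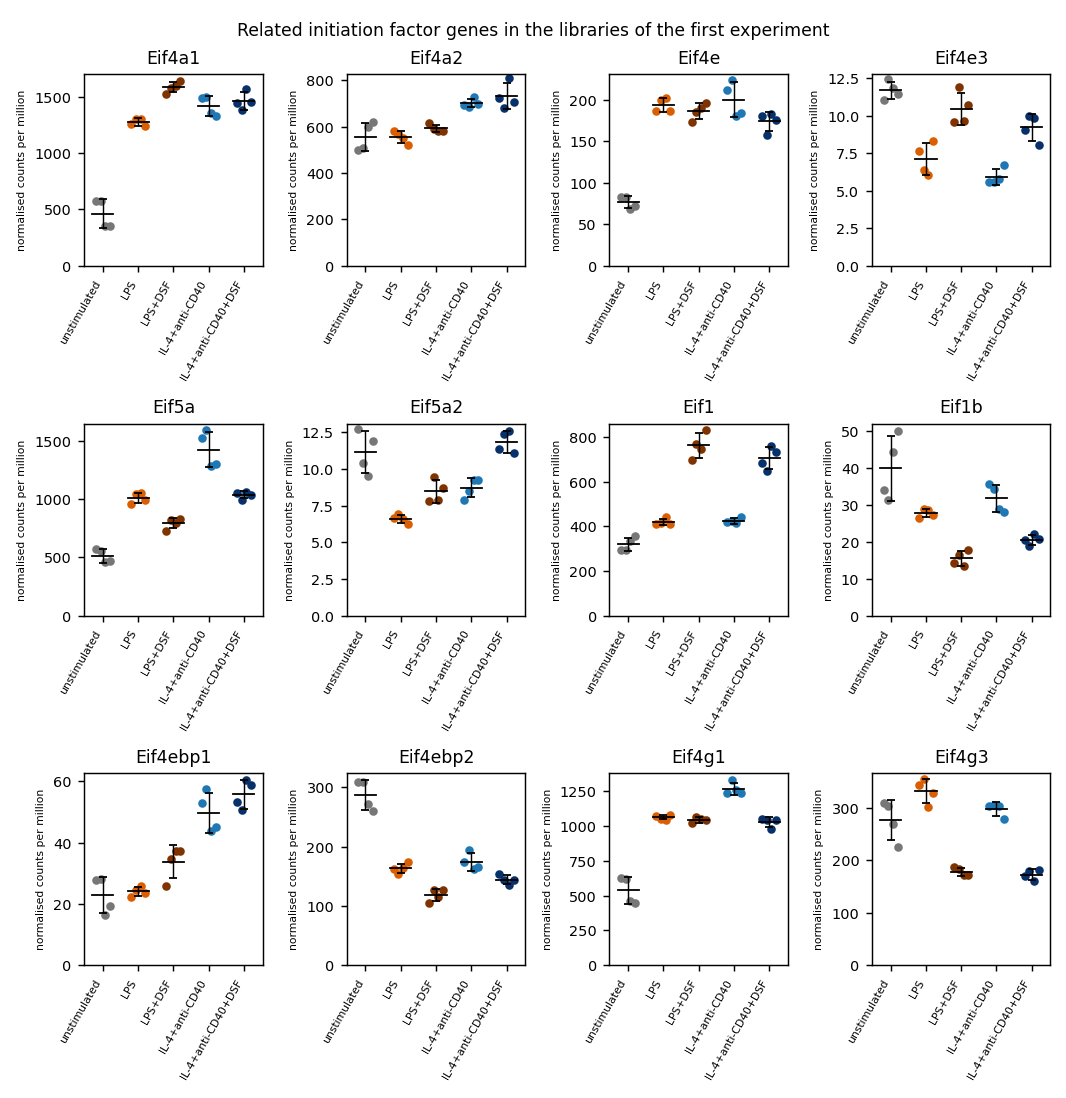
Normalised counts (CPM, y axis, from 0) of 12 related initiation factor genes in the 20 libraries of the first experiment by group (x axis, 4 points per group), with the mean as a line and the SD as a bar. Eif4a1 rises from at most 575 to at least 1243 with LPS while Eif4a2 overlaps. Eif4ebp2 falls, while Eif4ebp1 rises with IL-4/CD40 and not with LPS in this experiment.

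The 2 stimuli were also set against each other. Between LPS and IL-4/CD40 libraries, 4 of 49 genes were higher with LPS and 17 lower, against 22.3% and 17.3% of the 14078 genes tested, with a median log2 difference of -0.12 and -0.0062 over all genes. Scaling by library totals put the median of all genes at -0.14 here, and gave 0 higher and 35 lower. Eif4ebp1 had the largest difference (-1.04, SE 0.0954, edgeR adjusted p = 3.65e-06), since all 4 LPS libraries lay between 22.4 and 25.8 CPM and all IL-4/CD40 libraries between 43.7 and 57.6. Eif5a (-0.49, adjusted p = 0.00024), Eif5a2 (-0.39) and Eif4a2 (-0.33) were also lower with LPS. The 4 genes higher with LPS were Eif1a (0.23), Eif3f (0.23), Eif5b (0.22) and Eif4g3 (0.17), the last of which lost its call in 7 of 8 fits without a library (adjusted p of 0.0501 to 0.128).

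The second question was what DSF did to these mRNAs in stimulated cells. In LPS cells DSF left 19 of 49 genes higher, 16 lower and 14 not called, when 35.1% of the 14154 genes tested were higher and 36% lower, and the median log2 fold change was 0.018 for the initiation factor genes and 0.0019 for all genes. In IL-4/CD40 cells 8 were higher, 23 lower and 18 not called, with 30.1% and 31.6% of 14275 genes, and medians of -0.15 and -0.015. These splits depend on the scaling: with library totals the median of all genes was at -0.21 and -0.16, and DSF then gave 9 higher and 32 lower genes in LPS cells and 3 higher and 35 lower in IL-4/CD40 cells. All 4 DSF libraries lay above the 4 without in 12 genes with LPS and 8 with IL-4/CD40, and below in 16 and 20. Of all genes tested 30.3% lay wholly above and 33.8% wholly below with DSF in LPS cells, and 30.6% and 26.5% in IL-4/CD40 cells. Of the 16 genes lower in LPS cells all were lower in IL-4/CD40 cells too, which is 69.57% of the 23 there, and all 8 genes higher in IL-4/CD40 cells were among the 19 higher in LPS cells (42.11%). Over the 13736 genes tested in both, the shared lower genes were 75.15% of those lower in LPS cells and 84.94% of those lower in IL-4/CD40 cells, and the shared higher genes 72.73% and 84.21%. Eif2s3x and Eif3a had opposite calls, with changes of at most 0.20 in size. The plasma-cell marker sum was also higher with DSF (235 to 266 against 168 to 188 CPM with LPS, and 212 to 233 against 147 to 164 with IL-4/CD40). In group means this was Jchain (178.1 against 146.5 and 157.6 against 117.4) and Prdm1 (71.7 against 23.3 and 64.2 against 32.2). Sdc1 was at 3.57 against 6.06 with LPS and 4.09 against 3.92 with IL-4/CD40. The myeloid sum was higher with DSF in IL-4/CD40 cells (232 to 311 against 187 to 213). The T-cell sum was higher with DSF too (4.67 to 6.57 against 3.11 to 4.08 CPM with LPS, and 4.48 to 5.71 against 2.13 to 3.20 with IL-4/CD40). In group means this was Trac (4.89 against 1.28 and 3.76 against 1.45). The part of these sums in the results was not tested. Libraries left out in turn ended the calls of 6 genes in LPS cells (Eif2s1, Eif2s3x, Eif3a, Eif3c, Eif3e and Eif4a2, adjusted p of up to 0.395) and of 7 in IL-4/CD40 cells (Eif2s2, Eif3a, Eif3h, Eif3k, Eif4e, Eif4g2 and Eif4h, up to 0.169). The count of higher genes in IL-4/CD40 cells was 4 without IL-4/CD40 library 3 and 5 without IL-4/CD40 and DSF library 3.

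**Figure D3:**
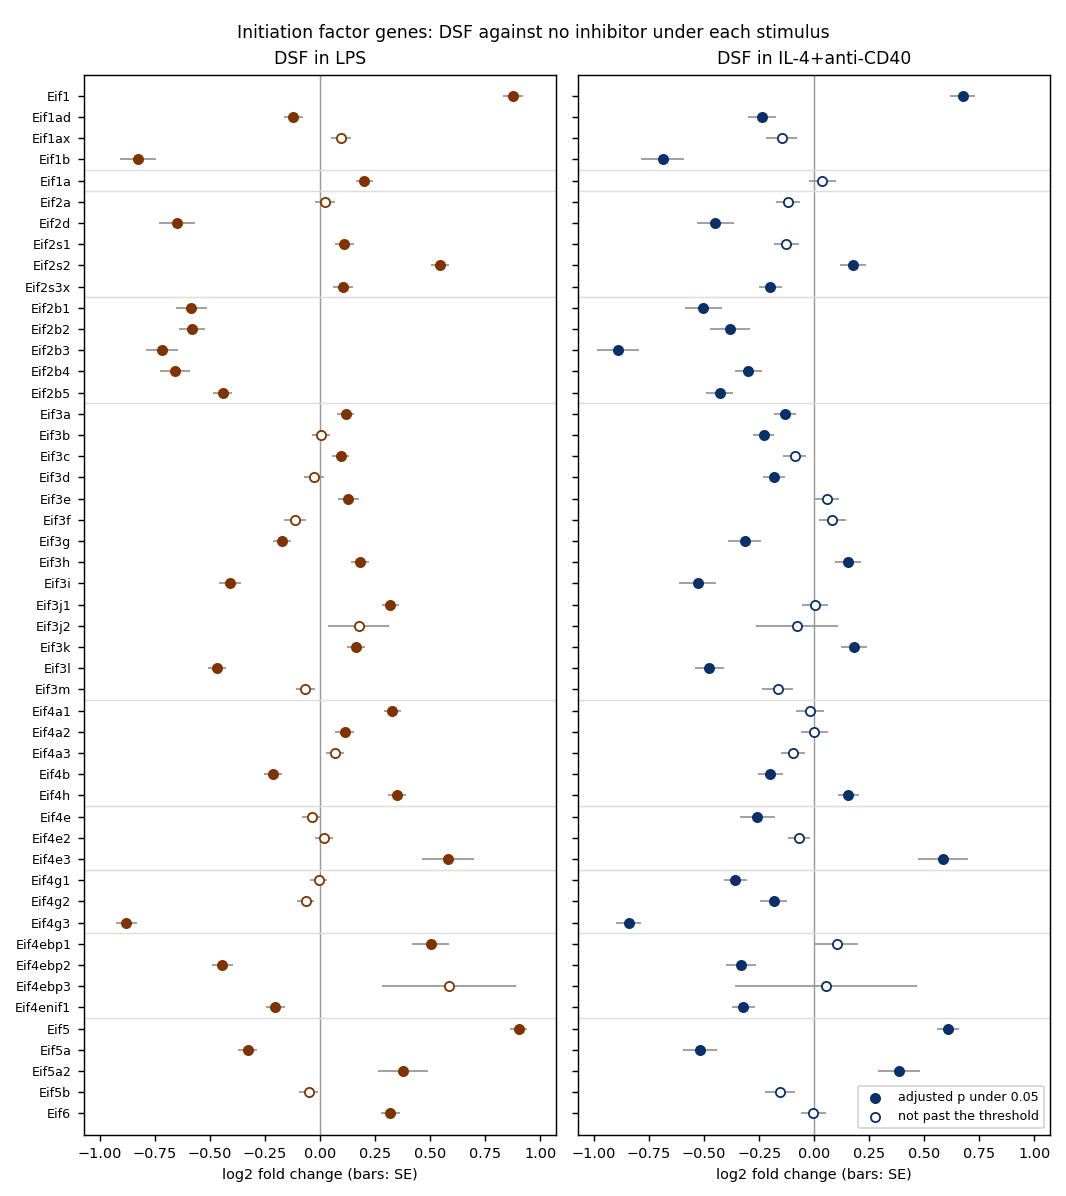
Log2 fold change (x axis) of the 49 tested initiation factor genes (y axis, ordered by role and separated by lines) with DSF against no inhibitor in LPS cells (left) and IL-4/CD40 cells (right), 4 libraries per group, with bars for the SE and filled points past the adjusted p threshold of 0.05. The 5 eIF2B genes lie left of 0 in both panels, and Eif1 and Eif5 lie farthest to the right.

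All 5 eIF2B subunit genes were lower with DSF under both stimuli, the only role group of which every member was called the same way in both. Of all genes tested 36% were lower with DSF in LPS cells and 31.6% in IL-4/CD40 cells, and 3769 of the 13736 tested in both were lower in both. Eif2b3 was at 28.5, 37.5, 28.1 and 32 CPM with LPS and DSF, against 48.5 to 56.2 with LPS, and at 34.9, 34.1, 33.4 and 31.3 with IL-4/CD40 and DSF, against 49.7 to 67 without. The groups did not overlap, and the log2 fold changes were -0.72 (SE 0.072, edgeR adjusted p = 2.32e-09) and -0.89 (SE 0.0951, adjusted p = 1.2e-05). Eif2b4, the delta subunit, had 45.7, 43.8, 44.3 and 48.9 CPM with LPS and 26.1, 26.8, 28.8 and 32.5 with LPS and DSF (-0.66, adjusted p = 2.59e-09). In IL-4/CD40 cells it went from 52.1, 52.8, 51.1 and 47.1 to 40.6, 44.6, 42.5 and 44.4 (-0.30, adjusted p = 0.00134), also without overlap. The other 3 subunits changed by -0.59 (Eif2b1), -0.58 (Eif2b2) and -0.44 (Eif2b5) with LPS and by -0.50, -0.38 and -0.43 with IL-4/CD40. The directions and calls of all 5 held when counts were scaled by library totals, where they lay between -0.93 and -0.65 with LPS and between -1.04 and -0.45 with IL-4/CD40.

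**Figure D4:**
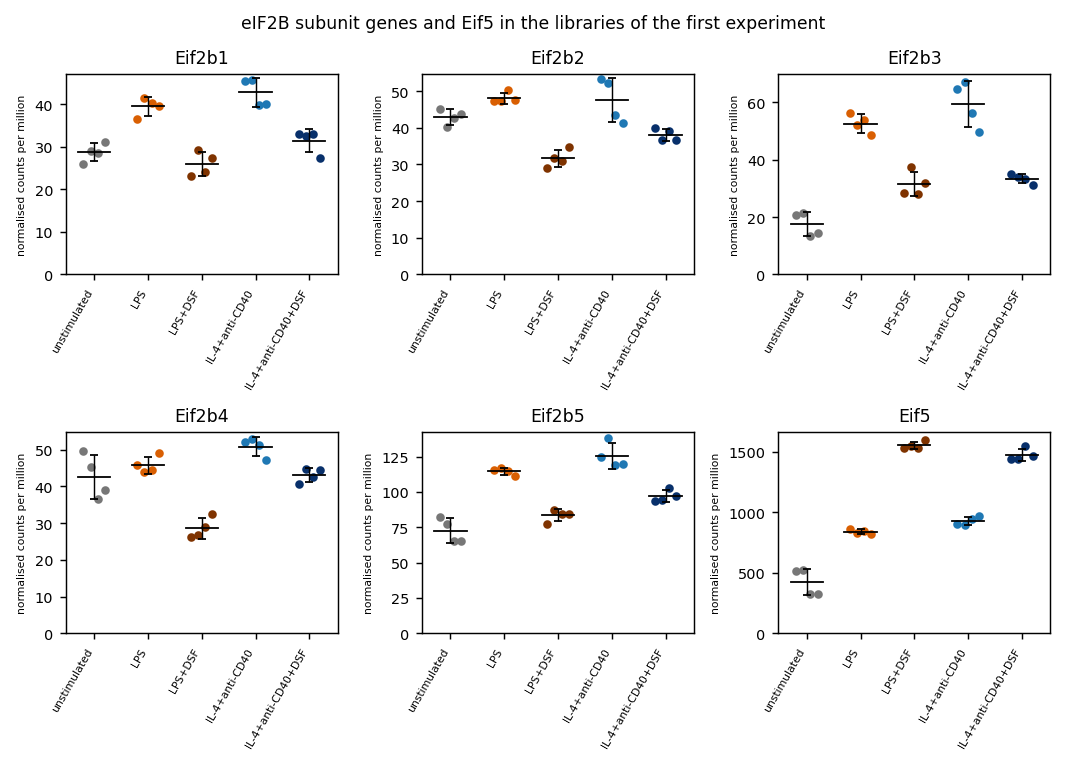
Normalised counts (CPM, y axis, from 0) of the 5 eIF2B subunit genes and of Eif5 in the 20 libraries of the first experiment by group (x axis, 4 points per group), with the mean as a line and the SD as a bar. Eif2b3 falls from 48.5 to 56.2 with LPS to at most 37.5 with LPS and DSF, while Eif5 rises from at most 865 to at least 1532.

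Opposite to eIF2B, the genes of 2 factors that act on the start codon rose. Eif5 was at 865, 833, 846 and 820 CPM with LPS and 1532, 1553, 1533 and 1598 with LPS and DSF, and at 902, 896, 942 and 972 with IL-4/CD40 and 1442, 1440, 1553 and 1464 with IL-4/CD40 and DSF. Both pairs of groups were far apart, with log2 fold changes of 0.90 (SE 0.0386, edgeR adjusted p = 1.48e-16) and 0.61 (SE 0.051, adjusted p = 2.77e-06). Eif1 went from 412, 413, 441 and 411 to 698, 769, 747 and 832 CPM with LPS and from 418, 422, 413 and 441 to 681, 648, 757 and 730 with IL-4/CD40, log2 fold changes of 0.88 (SE 0.0447, adjusted p = 5.28e-15) and 0.67 (SE 0.0573, adjusted p = 3e-06). Its relative Eif1b moved the other way, from 26.5, 29, 28.7 and 27.4 to 14.4, 16.4, 13.4 and 17.8 with LPS (-0.83, adjusted p = 1.45e-09) and from 35.6, 34.4, 28.9 and 28.1 to 20.4, 18.9, 22.3 and 20.7 with IL-4/CD40 (-0.69, adjusted p = 8.69e-05). Of the exon bases of Eif1b 12.7% are overlapped by an antisense transcript, and whether the counting used strand is not given in the sources used here. Eif2s2 rose by 0.54 with LPS (adjusted p = 8.3e-12), to 421, 443, 435 and 470 CPM, and by 0.18 with IL-4/CD40 (adjusted p = 0.0232, lost without IL-4/CD40 library 3 or DSF library 3 or 4, adjusted p of 0.0604 to 0.0771), to 426, 419, 464 and 457.

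In the cap-binding group the paralogs separated again. Eif4g3 went from 343, 356, 303 and 328 CPM to 187, 183, 172 and 172 with LPS and from 303, 305, 304 and 278 to 171, 180, 160 and 181 with IL-4/CD40. Its log2 fold changes of -0.88 (SE 0.0485, edgeR adjusted p = 2.52e-14) and -0.84 (SE 0.0572, adjusted p = 1.23e-06) were the lowest in LPS cells and the second lowest, after Eif2b3, in IL-4/CD40 cells. Eif4g1 changed by -0.0072 with LPS (adjusted p = 0.874) and fell by 0.36 with IL-4/CD40 (adjusted p = 0.000117), from 1236, 1331, 1254 and 1234 to 1052, 1043, 975 and 1041 CPM. Eif4e3 rose under both stimuli by 0.58, to 9.59, 11.9, 9.65 and 10.7 CPM with LPS (adjusted p = 0.00011) and 9.03, 9.95, 9.85 and 8.03 with IL-4/CD40 (adjusted p = 0.000956), against 11 to 12.4 in unstimulated cells. Eif4e changed by -0.038 with LPS and -0.26 with IL-4/CD40, and only the second passed (adjusted p = 0.015), a call that was lost without IL-4/CD40 library 2 (adjusted p = 0.053). Eif4a1 rose by 0.33 with LPS (adjusted p = 4.91e-08), to 1526, 1577, 1591 and 1635 CPM, and was at -0.019 with IL-4/CD40. Eif4ebp2 fell further, by 0.44 and 0.33 on the log2 scale, and Eif4ebp1 rose with LPS by 0.50 (adjusted p = 1.13e-05) to 26, 34.5, 37.4 and 37.2 CPM. Eif4enif1 fell by 0.20 and 0.32.

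The copies of eIF5A also went opposite ways with DSF in the first experiment. Eif5a fell to 728, 822, 798 and 829 CPM with LPS (-0.33, SE 0.0435, edgeR adjusted p = 2.66e-07) and to 1053, 994, 1063 and 1035 with IL-4/CD40 (-0.52, SE 0.0775, adjusted p = 0.000135). Eif5a2 rose by 0.38 under both (adjusted p = 0.00422 and 0.0046), to 7.83, 9.48, 7.91 and 8.72 and to 11.4, 12.4, 12.6 and 11.1 CPM, calls that were lost under scaling by library totals (0.17 and 0.23). Eif6 rose by 0.32 with LPS (adjusted p = 4.24e-07) and was at -0.0045 with IL-4/CD40. In eIF3 the changes were small: 6 of 14 genes rose and 3 fell with LPS, and 2 rose and 6 fell with IL-4/CD40. Over all genes tested 35.1% rose and 36% fell with DSF in LPS cells, and 30.1% rose and 31.6% fell in IL-4/CD40 cells. Eif3h (0.18 and 0.15) and Eif3k (0.16 and 0.18), which had not passed with the stimuli alone, rose slightly under both, but not with counts scaled by library totals, where Eif3h was at -0.026 and 0.0040 and Eif3k at -0.046 and 0.031 and none passed. The larger ones were the declines of Eif3l (-0.47 and -0.48) and Eif3i (-0.41 and -0.53), and Eif3i went from 226, 235, 190 and 189 to 146, 141, 166 and 154 CPM in IL-4/CD40 cells (adjusted p = 0.000221). Eif2d fell by 0.65 and 0.45, below the level that the stimuli alone had left.

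Whether DSF acted unequally under the 2 stimuli was tested by the interaction term over 16 libraries. It passed for 11 of 49 genes, 10 with a more positive and 1 with a more negative DSF change in LPS cells, against 7.92% and 6.96% of 15130 genes, and the median difference was 0.14 for the initiation factor genes and 0.016 for all genes. The single negative gene was Eif2b4 (-0.37, SE 0.094, edgeR adjusted p = 0.0119), which fell more in LPS cells. Eif2s2 (0.36, adjusted p = 0.00232), Eif4g1 (0.35, adjusted p = 0.000543) and Eif4a1 (0.34, adjusted p = 0.00304) were the largest positive ones, and Eif2s1 (0.23) lost its call in 11 of 16 fits without a library (adjusted p of 0.0578 to 0.0964). Without LPS and DSF library 4 the negative genes were 2, and when all 20 libraries were fitted together the 10 positive calls were lost (edgeR adjusted p of 0.135 to 0.546).

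Against unstimulated cells, DSF-treated cells were mostly higher, too. With LPS and DSF 30 genes were higher and 9 lower (34.3% and 37.3% of 14663 genes, medians 0.56 and -0.019), and with IL-4/CD40 and DSF 34 and 7 (33.4% and 35.3% of 14678 genes, medians 0.81 and -0.0027). Scaling by library totals put the median of all genes at -0.43 and -0.31 and gave 21 higher and 17 lower, and 26 and 11. These comparisons share the unstimulated libraries with those of the stimuli alone. The eIF2B genes were the group that stood lowest in LPS and DSF cells, with a median of -0.15: Eif2b2 (-0.45) and Eif2b4 (-0.58) were lower than in unstimulated cells, Eif2b3 was still higher (0.84), and Eif2b1 (-0.15) and Eif2b5 (0.19) did not pass. Eif2d (-1.42 and -1.11), Eif1b (-1.37 and -0.95) and Eif4ebp2 (-1.29 and -0.99) were the lowest in both comparisons. Eif5 reached 1.87 and 1.80 and Eif2s2 1.94 and 1.95.

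The genes around the initiation factors were described by 5 lists, here and in the next paragraph, which were not tested as sets. For reading their counts, 35.1% of all genes tested were higher and 36% lower with DSF in LPS cells. In IL-4/CD40 cells the shares were 30.1% and 31.6%. The stimuli alone gave 29.6% and 33.3% (LPS) and 30.4% and 32.1% (IL-4/CD40). Of the 6 genes for eIF2 kinases and for the subunits that direct phosphatase to eIF2, 3 rose and 3 fell with DSF in LPS cells and 3 rose and 2 fell in IL-4/CD40 cells. Eif2ak3, the kinase PERK of the endoplasmic reticulum, fell with the stimuli (-1.93 and -2.03) and rose with DSF (1.09 and 1.17), and Ppp1r15a, the inducible phosphatase subunit GADD34, rose with the stimuli (1.73 and 0.95) and again with DSF (1.25 and 1.34). The largest change of the list with LPS was 3.71, in a gene other than Eif2ak3 and Ppp1r15a. With IL-4/CD40 no gene of the list rose by more than 0.95. Eif2ak1, the heme-regulated kinase, changed with DSF by -0.60 and -0.47. Of 9 tested genes that are known targets of the integrated stress response, 5 rose and 1 fell with LPS alone and 6 rose and 0 fell with IL-4/CD40 alone. The medians of these changes were 1.11 and 1.38. With DSF 7 were higher under each stimulus and 1 lower, with smaller medians of 0.68 and 0.39. The lowest changes of the list with DSF were -0.46 and -0.24. Atf4, whose translation rises when eIF2B activity is low, changed with DSF by 0.56 and 0.39, Ddit3 by 2.01 and 1.24 and Atf3 by 2.86 and 2.47, while Asns (0.17 and -0.24) passed only in IL-4/CD40 cells, as lower. These are mRNA levels, and eIF2 phosphorylation was not measured.

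Of 14 accessory initiation factor genes 11 rose with LPS and 12 with IL-4/CD40, and with DSF 3 rose and 7 fell in LPS cells and 1 rose and 8 fell in IL-4/CD40 cells. Paip2, an inhibitor of the poly(A)-binding protein, was opposite to most (-0.82 and -1.22 with the stimuli, 0.75 and 1.00 with DSF), and Larp1, which binds mRNAs of ribosomal proteins, had 1.90 and 1.88 with the stimuli. Pdcd4, an inhibitor of eIF4A, changed by -1.57 with LPS and -0.34 with IL-4/CD40 (the second did not pass) and by -0.63 and -1.41 with DSF. Denr, which recycles small subunits, changed with DSF by -0.83 and -0.48 and Dhx29, a helicase of the scanning ribosome, by -0.78 and -0.87. Of 11 tested elongation and termination genes 5 rose and 1 fell with LPS, 7 rose and 2 fell with IL-4/CD40, and with DSF 5 rose and 4 fell in LPS cells and 4 rose and 4 fell in IL-4/CD40 cells. Dhps, the first enzyme of the hypusine modification that eIF5A needs, rose with DSF by 0.75 and 0.56 while Eif5a fell, and Dohh, the second enzyme, changed by 0.05 and -0.30. Of 12 genes of the mTORC1 and MNK kinases that act on eIF4E and its binding proteins, 5 rose and 6 fell with LPS, 6 rose and 3 fell with IL-4/CD40, and 3 rose and 6 fell with DSF under each stimulus. Tsc2, a brake on mTORC1, changed with DSF by -1.27 and -1.21, its target Rheb by 0.97 and 0.76, and Mtor by -0.39 and -0.57.

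The second experiment gave each condition 1 library, so its log2 ratios have no replicate check. With LPS 9 of 49 genes were at least 2-fold higher and 0 lower, against 8.62% and 9.88% of 14275 genes. With IL-4/CD40 18 were higher and 0 lower, against 10.7% and 13.7%. With DSF 2 were higher and 5 lower in LPS cells (20.3% and 19.5% of all genes) and 0 higher and 9 lower in IL-4/CD40 cells (21.9% and 20.3%), and the medians were -0.25 and -0.48 (-0.040 and -0.0083 over all genes). With ibrutinib 0 were 2-fold higher or lower in LPS cells (2.81% and 2.47% of all genes) and in IL-4/CD40 cells (2.23% and 1.69%), with medians of -0.14 and -0.14, and 43 of 49 ratios were below 0 under each stimulus. Over all 14275 genes the ibrutinib medians were 0.0094 and 0.0043, with 6933 and 7039 ratios below 0.

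The 5 genes that were 2-fold lower with DSF in LPS cells were the 5 eIF2B subunit genes, and 4 of the 9 in IL-4/CD40 cells were eIF2B genes. Eif2b3 was at 22.8 CPM in the unstimulated library, 57.7 with LPS, 9.52 with LPS and DSF and 37.3 with LPS and ibrutinib. In the other condition it was at 62.0 with IL-4/CD40, 11.9 with DSF added and 46.2 with ibrutinib added, so that only the DSF libraries were below the unstimulated one. Its log2 ratios were -2.59 and -2.37 with DSF and -0.63 and -0.42 with ibrutinib. Eif2b1 had ratios of -2.08 and -1.77 with DSF and -0.30 and -0.12 with ibrutinib, and the other 3 subunits lay between -1.61 and -0.89 with DSF and between -0.23 and 0.04 with ibrutinib. The myeloid marker sum was also higher in the DSF libraries of this experiment (74.9 against 24.2 CPM with LPS and 72.5 against 28.9 with IL-4/CD40). So were the T-cell sum (12.7 against 6.44 and 9.72 against 4.09), the erythroid sum (69.4 against 25.9 and 61.0 against 25.5) and the plasma-cell sum (365 against 185 and 335 against 171). The part of these sums in the result was not tested. Most of the myeloid difference was Itgam, an integrin subunit (38.5 against 0.715 and 30.5 against 0.328). Csf1r (1.30 against 1.49 and 3.41 against 3.77) was not higher with DSF, and Adgre1 was at 2.60 against 3.74 and 2.77 against 2.07. The plasma-cell difference was mostly Jchain (304 against 162 and 273 against 146) and Prdm1 (55.3 against 14.6 and 56.6 against 22.2). Sdc1 was at 5.91 against 7.76 and 5.39 against 3.06.

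The genes that were 2-fold higher with DSF in LPS cells were Eif5 and Eif1. Eif5 was at 912 CPM with LPS, 2371 with DSF added and 812 with ibrutinib added, and at 982, 1932 and 865 in the IL-4/CD40 libraries, ratios of 1.38 and 0.98 with DSF and -0.17 and -0.18 with ibrutinib. Eif1 had 1.20 and 0.94 with DSF and -0.05 and -0.11 with ibrutinib. Eif5a, at 1056 CPM with LPS, was at 600 with DSF and 740 with ibrutinib, and at 1481, 612 and 1036 in the IL-4/CD40 libraries. Here both inhibitors gave lower values (ratios of -0.82 and -1.28 with DSF and -0.51 and -0.52 with ibrutinib). Eif5a2, higher with DSF in the first experiment, was at 10.5 against 10.1 CPM with LPS and 8.66 against 9.61 with IL-4/CD40. Eif4ebp1 was at 29.8 CPM in the unstimulated library, 42.7 with LPS and 75.1 with IL-4/CD40 (ratios of 0.52 and 1.33). With DSF added Eif4ebp1 was lower, at 38.5 with LPS and 51.4 with IL-4/CD40 (-0.15 and -0.55). Its rise with DSF in LPS cells of the first experiment was thus not seen here. Eif4e3, higher with DSF under both stimuli in the first experiment, was at 10.1 against 9.79 CPM with LPS. The Eif4e3 ratios with DSF were 0.04 with LPS and 0.89 with IL-4/CD40. Eif6, higher with DSF in LPS cells of the first experiment, was at 168 against 183 CPM here (-0.12). Eif2s2 (0.97) and Eif4a1 (0.38) were higher with DSF in LPS cells here too. Eif4g3 had -0.87 and -1.18 with DSF and -0.05 and -0.12 with ibrutinib, and Eif1b -0.86 and -1.28 and 0.21 and -0.05.

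**Figure D5:**
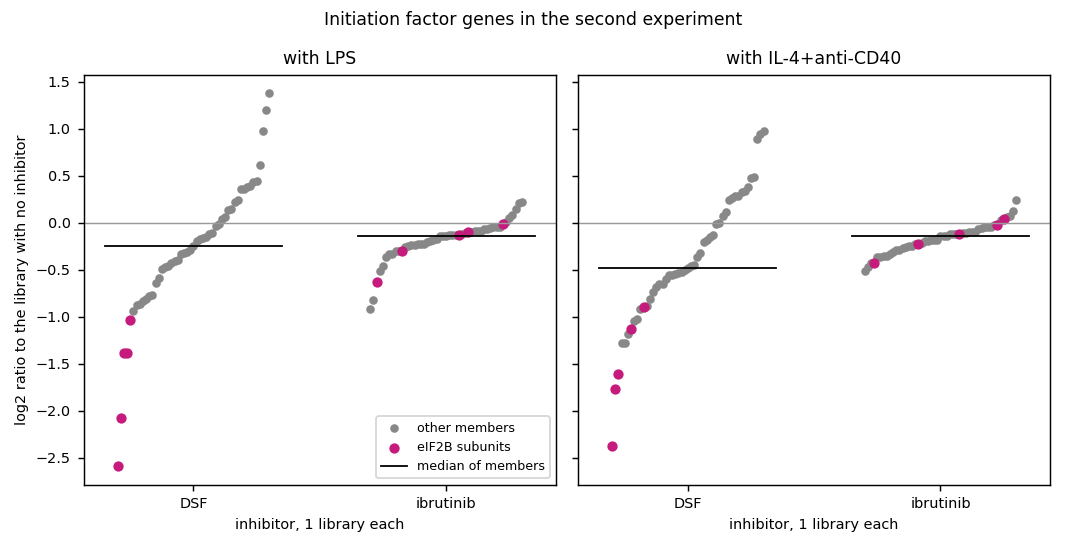
Log2 ratio (y axis) of each of 49 initiation factor genes in 1 library with DSF or ibrutinib (x axis) to the stimulated library that received no inhibitor in the second experiment, with LPS (left) and IL-4/CD40 (right), ordered by value within a column, with the 5 eIF2B genes in colour and a line at the median. The medians are -0.25 and -0.48 with DSF and -0.14 and -0.14 with ibrutinib, and the eIF2B genes lie toward the low end with DSF and are spread through the ibrutinib values.

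The counting of a few of these genes is uncertain. Of the 51 genes 32 share no 100-base stretch with another gene's transcripts in GENCODE release M21, and 6 share 10% or more: besides those given above, Eif2s3x shares 33.7% with Gm2223, Eif3j1 33.4% with Eif3j2, and Eif1 11.2% in all with several genes. On the opposite strand, 5 genes have 10% or more of their exon bases overlapped by another gene, at most 43.3% (Eif3d with Gm17638). On the same strand, Eif4e3 shares 14.8% of its exon bases and 7.53% of its stretches with the protein-coding gene Gm20696. Eif4ebp3 shares 67.3% of its exon bases with AC115631.1.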

How the data were processed

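The data were bulk mRNA libraries of mouse splenic B cells, 20 in the first and 7 in the second experiment. According to the methods and the submitters' processing notes, the authors trimmed reads with Fastp, aligned them with HISAT2 (version 2.0.5) to mm10 and counted them per gene with featureCounts (version 1.5.0-p3). The deposited tables hold raw counts per gene, and the deposited FPKM values were calculated by the authors from counts and gene lengths. The strand setting and annotation release are not given in the sources used here.

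Counts were tested in R 4.3.3 with edgeR 4.0.16 (quasi-likelihood, TMM scaling, filterByExpr) over all genes, with only the groups compared in each fit, Benjamini-Hochberg adjustment and a threshold of 0.05. The difference of the DSF effects was an interaction term. The second experiment, with 1 library a condition, gave log2 ratios of TMM-scaled counts (prior count 2, genes averaging at least 10 counts), and no test. FPKM served only for levels between genes. The fits were tested on simulated data. Libraries were not treated as paired by number (alternatives in the closing section: DESeq2 1.42.0, other scalings, filters, sample sets, a replicate block, each library left out).

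Members and gene lists were chosen with earlier results of these data known. Values were given for the 4 members per direction with the largest change in each main comparison (called, groups apart, at least 10 counts in each library of the higher group), for sets of paralogs and partners, and for the 4 largest interaction terms.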

Additional observations from a re-analysis of the deposited data

Results flagged for a closer look

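In 7 of 154 sets of 4 libraries for the named genes, 1 library lay apart from the other 3 by Dixon's criterion, which chance gives in about 1 of 20 sets. In CPM (TMM-normalised), the highest LPS library was apart for Eif1 (441, the next at 413) and Eif2b2 (50.3, the next at 47.5), and the lowest LPS library for Eif4g2 (1178, the next at 1195). With IL-4/CD40 and DSF the lowest library was apart for Eif2b1 (27.3, the next at 32.5), Eif2s1 (241, the next at 262) and Eif4g1 (975, the next at 1041), and with IL-4/CD40 the lowest for Eif4g3 (278, the next at 303).

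The DSF effect differed between LPS and IL-4/CD40 cells for 11 genes by edgeR's interaction term. The difference of the log2 effects, LPS minus IL-4/CD40, was negative for Eif2b4 (-0.365) and positive for Eif2s1 (0.233), Eif2s2 (0.363), Eif2s3x (0.298), Eif3a (0.244), Eif3b (0.227), Eif3j1 (0.31), Eif4a1 (0.342), Eif4g1 (0.347), Eif5 (0.289) and Eif6 (0.317). For Eif2s3x and Eif3a the effects were called in opposite directions under the stimuli, and for Eif5 they were called higher under both. When all 20 libraries were fitted together, 0 genes had a positive difference past the threshold.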

How the results depend on the processing

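In the first experiment, directions and calls of the 5 eIF2B genes and of Eif1, Eif5 and Eif4e3 with DSF held under total-count scaling. Other counts moved. A log2 fold change of at least 1 left, higher and lower, 12 and 0 genes with LPS, 22 and 0 with IL-4/CD40, 0 and 0 with DSF under each stimulus, 0 and 1 between the stimuli, 12 and 3 with LPS and DSF against unstimulated cells, 17 and 1 with IL-4/CD40 and DSF, and 0 and 0 for the interaction. Total-count scaling, which put the median of all genes at -0.27 with LPS and -0.19 with IL-4/CD40, gave 10 and 7 lower genes there, 9 higher and 32 lower with DSF in LPS cells, 3 and 35 in IL-4/CD40 cells, 0 and 35 between the stimuli, 17 and 11 lower with each stimulus and DSF against unstimulated cells, and 2 negative interactions. In the second experiment it gave 11 higher and 1 lower with IL-4/CD40 and 1 higher and 12 lower with DSF in LPS cells. One fit of all 20 libraries gave 7 lower with IL-4/CD40, 10 higher with DSF in LPS cells, 0 higher and 10 lower between the stimuli and 0 positive interactions. Testing all genes with any count gave 12 and 4 higher with DSF in LPS and IL-4/CD40 cells. In the second experiment a prior count of 0.5 or a mean of at least 50 counts gave 1 lower gene with IL-4/CD40, and the latter 3 higher with DSF in IL-4/CD40 cells. The causes were not tested.

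Among the named genes, signs turned under total-count scaling for Eif2b2 with LPS (-0.063), for Eif1a (-0.0071), Eif1ax (-0.11), Eif2s1 (-0.098), Eif2s3x (-0.10), Eif4a2 (-0.096), Eif4a3 (-0.14) and Eif4e2 (-0.19) with DSF in LPS cells, and for Eif3j1 (-0.14) and Eif4a2 (-0.15) with DSF in IL-4/CD40 cells. Over all 49 genes that scaling turned the sign of a call, made or gained, for 2 with LPS, 14 and 2 with DSF in LPS and IL-4/CD40 cells, 1 between the stimuli, and 6 and 5 with each stimulus and DSF against unstimulated cells. Without unstimulated libraries 3 and 4, left out after the data were seen, they turned with LPS for Eif4a2 (0.14) and Eif4ebp1 (-0.22).

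Same-numbered libraries deviated together in some pairs and not in others (r of -0.102 to 0.418), so pairing by number is not settled. The highest values were for DSF in IL-4/CD40 cells (0.407 for library 1, 0.418 for library 4) and in LPS cells (0.221 for library 1). A replicate block gave 5 higher genes with DSF in IL-4/CD40 cells. With each library left out in turn, higher and lower genes were 32 to 34 and 5 to 6 with LPS, 34 to 38 and 4 to 5 with IL-4/CD40, 13 to 20 and 16 to 18 with DSF in LPS cells, 4 to 8 and 20 to 28 with DSF in IL-4/CD40 cells, 3 to 4 and 12 to 22 between the stimuli, 29 to 32 and 7 to 10 with LPS and DSF, 33 to 35 and 5 to 7 with IL-4/CD40 and DSF against unstimulated cells, and 9 to 13 and 1 to 2 for the interaction. Levels per length had the same 10 leading genes in every group with the alternative scaling, in another order with IL-4/CD40.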
